A study of Mus musculus with 14 samples.

Results

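Hedgehog signalling genes were followed across 14 bulk RNA-seq libraries of mouse hair follicle stem cells. These were sorted from trypsin-treated back skin as CD34+ and Ly-6A/E- cells, also positive for a marker given as CD45f. The set holds 9 genes: the ligand Shh, the membrane genes Ptch1, Hhip, Gas1, Boc and Cdon, and the transcription factors Gli1, Gli2 and Gli3. They were chosen by name, for their place in the pathway and with earlier results of these data known, out of 34049 genes with any count. All 9 passed the filter on low counts and were among the 24592 genes tested. Cells came from mice at postnatal day 18 (P18) or postnatal day 20 (P20), labelled either Irx5KO (a knockout of the Iroquois transcription factor gene Irx5) or wild type (WT), with no treatment named. There were 3 libraries for each genotype at P18 and 4 for each at P20. The labels give no strain, sex, allele or driver for the knockout, and nothing in them ties a library to an animal. The p-values therefore measure the spread of libraries around the fitted values, which may be technical.

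Hedgehog ligands bind Ptch1, which otherwise holds the membrane protein Smo inactive. Once Smo is released, signalling through the primary cilium turns Gli2 and Gli3 towards their activating forms, and Gli1, Ptch1 and Hhip are transcribed as targets. Gas1, Boc and Cdon are co-receptors that help the ligand bind, while Hhip binds ligand at the cell surface and restrains the signal. In skin, Shh from the follicle epithelium is known for driving hair follicle growth, and the bulge and hair germ respond to Hedgehog when a new hair cycle starts.

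Total estimated counts ran from 13618367 (P20 Irx5KO 3) to 70083873 (P18 Irx5KO 3). A date code in the deposited file names split each age into an earlier and a later date, and the sources used here do not say what was done on those dates. At P18, Irx5KO 1, WT 1 and WT 2 carried the earlier date, while Irx5KO 2, Irx5KO 3 and WT 3 carried the later. At P20, both genotypes had their numbers 3 and 4 on the earlier date and their numbers 1 and 2 on the later. The file name of P18 WT 3, which had no other WT library beside it on its date, also carried the word het, and its title was used. At P18 the dates also differed in the Y-linked gene Ddx3y, so date and sex cannot be told apart there. At P20 Ddx3y was at 0.338 and 0.123 CPM at raw library sizes in Irx5KO 1 and WT 1 and at 58.5 to 74.6 CPM in the other 6, so both labelled groups of the later date mixed low and high libraries. In 3 libraries (P18 WT 1, P18 WT 2 and P20 WT 2) the genes of 1706 olfactory, vomeronasal and trace amine receptors took 1.78% to 5.37% of counts, against 0.102% to 0.605% in the other 11. All 11 bulge markers were detected, among them Krt15 at 4830 to 17220 CPM (counts scaled to a common library total) and Cd34 at 241.5 to 919 CPM. The sorted-against marker Ly6a was at 0 to 2.72 CPM.

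Irx5 itself went against its labels at the earlier P20 date. In the later P20 libraries Irx5KO-labelled samples had 30.0 and 18.1 CPM of Irx5 against 108 and 93.5 CPM for WT. In the earlier P20 libraries the Irx5KO-labelled samples had 181 and 170 CPM against 33.2 and 37.5 CPM for WT. The difference had a log2 value of -2.06 ± 0.26 (standard error, SE) on the later date and 2.31 ± 0.26 on the earlier date (edgeR quasi-likelihood test, adjusted p = 0.0018 and 0.000146, 2 against 2 libraries each). At P18 all 3 libraries labelled Irx5KO (48.0, 70.6 and 73.4 CPM) lay below all 3 labelled WT (93.8, 110 and 132 CPM), which did not pass the test (-0.98 ± 0.86, adjusted p = 0.92). That test came from a fit over both ages, so the opposite P20 differences entered the spread behind its SE. Genotypes are therefore given as labelled, and P20 results are given for each date as well as pooled.

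The genes lie on different chromosomes of the mm10 (GRCm38) assembly, except that Ptch1, Gas1 and Gli3 share chromosome 13. In the GENCODE annotation, Ptch1 spans 63508328 to 63573598 on the minus strand of chromosome 13, Hhip 79965851 to 80058006 on the minus strand of chromosome 8, and Gli2 118834132 to 119053619 on the minus strand of chromosome 1. Gli1 spans 127329882 to 127341974 on the minus strand of chromosome 10, and Shh 28456815 to 28467256 on the minus strand of chromosome 5. Promoter windows of 250 bases before a RefSeq transcript start were matched for 6 of the 9 genes (RefSeq on GRCm38.p6). The windows of Ptch1 and Hhip, whose genotype differences had one sign on the later and the other on the earlier P20 date, and of Gli2, which was higher at P20, are shown 5′ to 3′ on the strand of the gene. The Ptch1 window (chr13:63565736-63565985) starts from the RefSeq transcript and lies in an intron of 2 longer GENCODE models, the Hhip window is chr8:80058009-80058258 and the Gli2 window is chr1:119053620-119053869. Capitals mark CCACCC, the core of the Gli binding motif, or its reverse complement GGGTGG.
Ptch1: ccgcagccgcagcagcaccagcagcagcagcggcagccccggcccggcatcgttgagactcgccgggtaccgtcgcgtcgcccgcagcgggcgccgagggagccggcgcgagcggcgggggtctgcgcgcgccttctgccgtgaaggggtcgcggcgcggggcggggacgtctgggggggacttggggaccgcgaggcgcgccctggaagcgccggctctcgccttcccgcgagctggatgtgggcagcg
Hhip: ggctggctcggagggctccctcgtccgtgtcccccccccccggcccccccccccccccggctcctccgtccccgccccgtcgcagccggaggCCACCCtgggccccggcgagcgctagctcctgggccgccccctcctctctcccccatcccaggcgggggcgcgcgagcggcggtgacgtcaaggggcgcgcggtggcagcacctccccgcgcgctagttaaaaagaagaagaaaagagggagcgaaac
Gli2: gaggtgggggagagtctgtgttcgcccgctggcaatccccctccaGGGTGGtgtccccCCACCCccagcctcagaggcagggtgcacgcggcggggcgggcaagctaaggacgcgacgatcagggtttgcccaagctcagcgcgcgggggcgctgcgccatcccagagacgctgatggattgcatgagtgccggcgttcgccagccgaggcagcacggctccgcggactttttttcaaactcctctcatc
The longer Gli consensus GACCACCCA, searched on both strands, was in 0 of the 6 windows and in 74 (0.225%) of 32851 RefSeq windows of the same length. Its core CCACCC, part of that consensus, was present 1 time in the Hhip window, 2 times in that of Gli2 and 1 time in that of Gli3. It was present 0 times in the windows of Ptch1, Gas1 and Cdon, and 28.1% of all windows held it. The windows were rich in G and C (78.4% for Ptch1, 76.0% for Hhip and 67.2% for Gli2, against a median of 52.4% over all windows). These matches describe the letters of the windows only.

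Per transcript length, the co-receptors Gas1 and Boc were the most abundant of the 9 genes, followed by Gli2, and the ligand was the least. Mean levels over the 14 libraries were 127 ± 42.9 TPM (SD, n = 14; deposited values scaled for transcript length and library total) for Gas1, 87.4 ± 27.2 for Boc, 60.3 ± 18.5 for Gli2, 52.7 ± 38.8 for Ptch1, 36.8 ± 6.86 for Gli3, 33.2 ± 26.3 for Gli1 and 32.0 ± 9.74 for Cdon. Hhip was at 1.85 ± 2.30 TPM and Shh at 1.30 ± 1.14 TPM. Gas1 lay above Boc in 12 of 14 libraries, Boc above Gli2 in 13 and Cdon above Hhip in all 14. Except for Cdon and Hhip, the means of neighbours in this order differed by less than the SD of the higher one, and some neighbours often changed places: Ptch1 lay above Gli3 in 8 libraries, Gli1 above Cdon in 4 and Hhip above Shh in 7. The 3 genes transcribed in response to the signal varied most in CPM apart from Shh. From the lowest to the highest library, Ptch1 spanned 11.4-fold (51.4 to 586 CPM), Gli1 10.3-fold (31.0 to 318 CPM) and Hhip 110-fold (0.641 to 70.4 CPM). Gli3, whose protein acts mainly as the repressor of the pathway, spanned 2.22-fold (70.1 to 155 CPM).

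**Figure D1:**
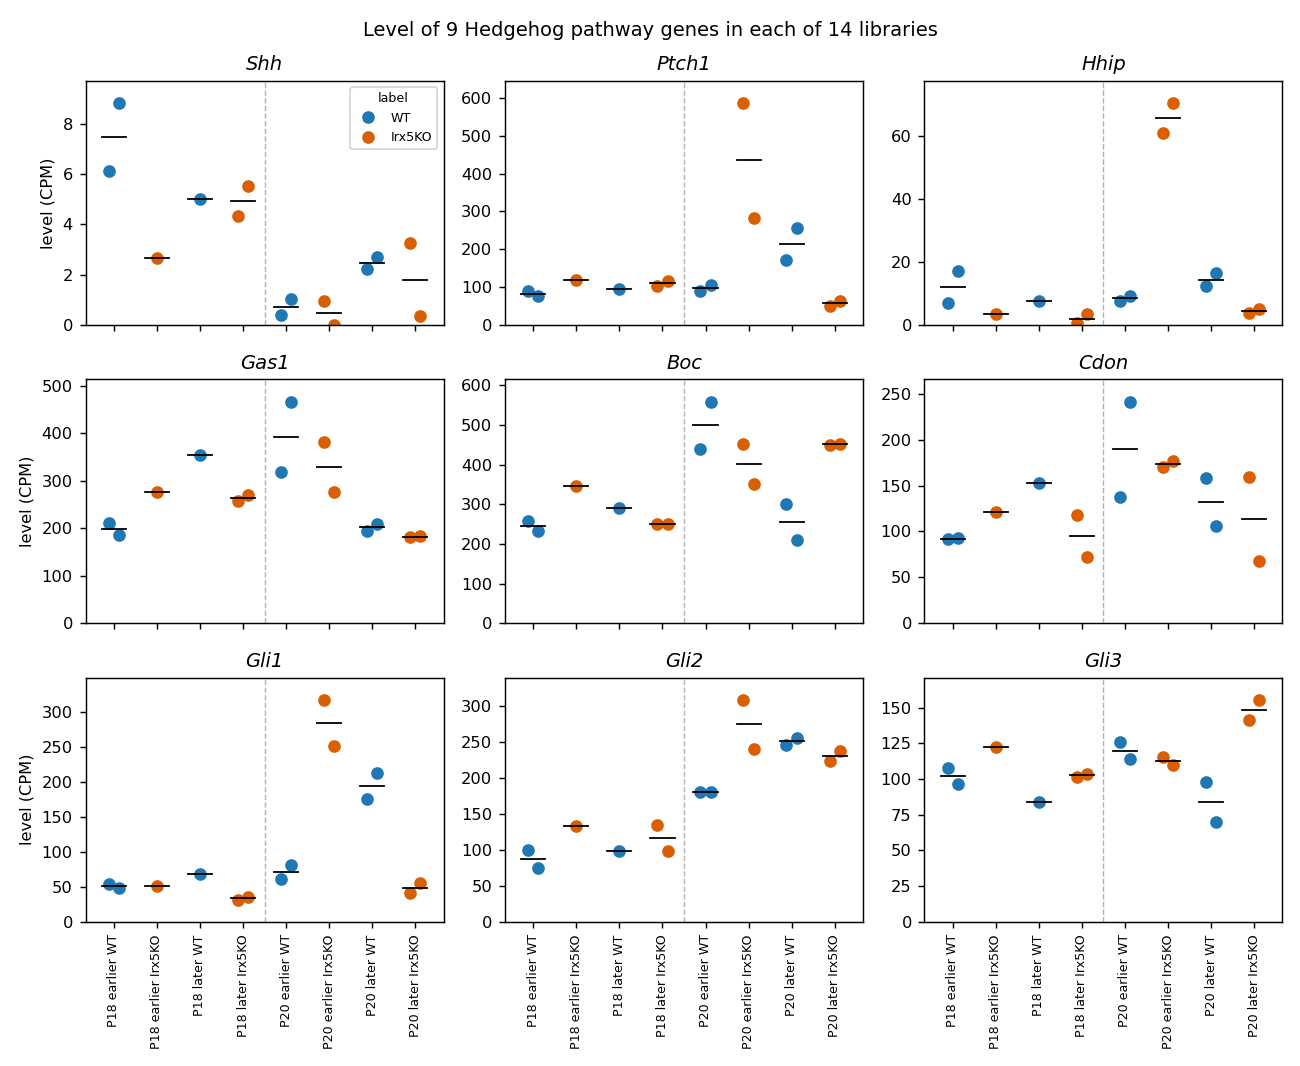
Level in CPM (vertical axes, linear) of each of the 9 genes in the 14 libraries, arranged by age, date and labelled genotype (WT blue, Irx5KO orange), where a point is a library and a bar the mean of its column. Gli1, Ptch1 and Hhip are highest in the earlier P20 libraries labelled Irx5KO (318 and 251 CPM for Gli1), while Gli2 is higher in all 8 P20 libraries than in all 6 from P18.

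At the later P20 date, the target genes Gli1 and Ptch1 were lower in the libraries labelled Irx5KO. Gli1, an activator that the signal itself induces, was at 40.6 and 55.5 CPM under the Irx5KO label against 176 and 213 CPM under the WT label. Gli1 was 4.05-fold lower (log2 -2.02 ± 0.26, edgeR adjusted p = 0.00181, 2 against 2 libraries). Ptch1 was at 51.4 and 63.5 CPM under the Irx5KO label against 170 and 256 CPM in WT. It was 3.71-fold lower (-1.89 ± 0.32, edgeR adjusted p = 0.0108). Hhip had 3.94 and 5.20 CPM against 12.2 and 16.4 CPM, the same order of groups, but did not pass (-1.64 ± 0.61, adjusted p = 0.533). These 2 calls, both lower, stood among 161 genes called (0.655% of those tested, 0.516% in the lower direction). Groups did not overlap for 7 of the 9 genes on this date, 2 higher and 5 lower, beside 30% of all genes tested (12.7% higher and 17.3% lower).

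Both calls rested on few libraries. The Gli1 call was lost without P20 Irx5KO 1 (-1.80, edgeR adjusted p = 0.0553). That of Ptch1 was lost without Irx5KO 1 (adjusted p = 0.183), Irx5KO 2 (0.155) or WT 2 (0.0679), and also with TMM scaling over all genes (-1.75, adjusted p = 0.133) and with limma voom (-1.89, adjusted p = 0.153).

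At the earlier P20 date the same target genes were higher in the libraries labelled Irx5KO, where Irx5 ran against the label. Gli1 was at 318 and 251 CPM under the Irx5KO label against 61.5 and 80.5 CPM under the WT label, 4.01-fold higher (2.00 ± 0.26, edgeR adjusted p = 4e-04, 2 against 2 libraries). Ptch1 was at 586 and 283.5 CPM against 90.2 and 106 CPM, 4.42-fold higher (2.15 ± 0.32, edgeR adjusted p = 0.00126). Of the libraries labelled Irx5KO, number 3 had the higher Ptch1 level, and its fold difference without that library was log2 1.53. Hhip was at 60.8 and 70.4 CPM against 7.69 and 9.32 CPM, 7.72-fold higher (2.95 ± 0.61, edgeR adjusted p = 0.0178). These 3 genes were the members that passed, all higher, beside 1187 genes called in all (4.83% of those tested, 2.2% in the higher direction). Groups did not overlap for 4 of the 9 genes, all higher, beside 40.5% of all genes tested, with 15.7% in the higher direction. Leaving out Irx5KO 4, WT 3 or WT 4 ended the call of Hhip (edgeR adjusted p = 0.0738, 0.191 and 0.109), while Gli1 and Ptch1 passed without any 1 library.

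**Figure D2:**
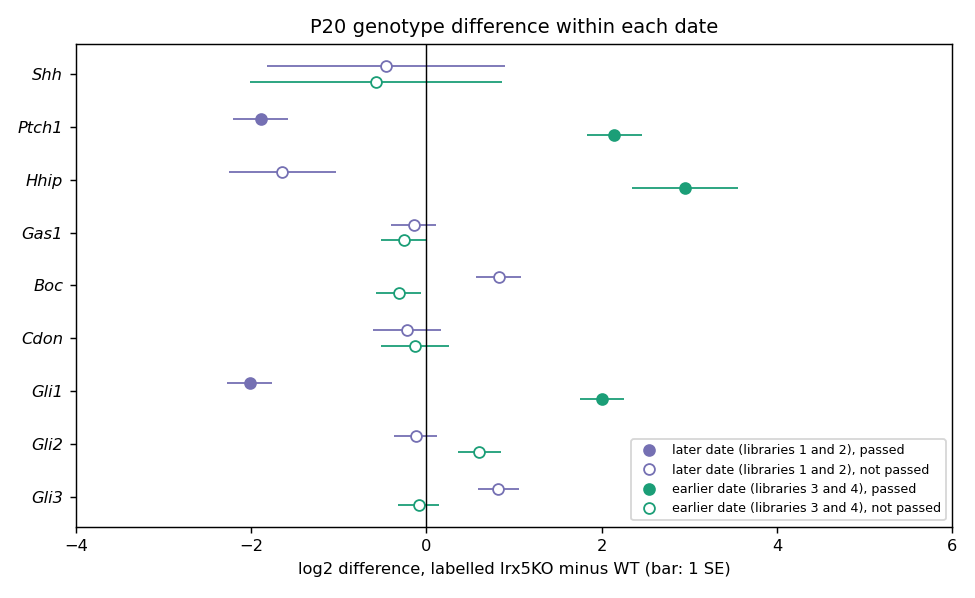
Log2 difference of the libraries labelled Irx5KO minus those labelled WT (horizontal axis, bar 1 SE) for each gene at the later P20 date (purple) and the earlier P20 date (green), 2 against 2 libraries each, with filled points passing the test. Gli1 (-2.02 and 2.00) and Ptch1 (-1.89 and 2.15) pass on both dates with opposite signs, and Hhip passes on the earlier date.

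The difference between labelled genotypes therefore changed sign between dates for the target genes, and this change was itself tested. The difference of the later date minus that of the earlier date was -4.02 ± 0.36 for Gli1 (edgeR adjusted p = 9.38e-06), -4.04 ± 0.45 for Ptch1 (6.96e-05) and -4.59 ± 0.86 for Hhip (0.00679). Irx5 changed sign with them (-4.37 ± 0.37, edgeR adjusted p = 5.38e-06). Whether the labels of the libraries numbered 3 and 4 were exchanged was not tested, and with exchanged labels the differences of these 4 genes would have 1 sign on both dates. The targets were 3 of the 1274 genes called, 5.18% of those tested, with 2.68% in the lower direction. The call of Hhip was lost without Irx5KO 1 (adjusted p = 0.0517) or WT 3 (adjusted p = 0.0567). Pooled over both dates, 0 of 9 genes passed (edgeR adjusted p under 0.05, and 0 of 9 at an unadjusted p under 0.05), as did 0% of all genes. Groups of the pooled comparison overlapped for all 9 genes and were apart for 1.07% of genes tested. DESeq2 called 0 of the 9 in the pooled comparison and limma voom 1, Hhip (2.50, adjusted p = 0.01). The pooled differences were -0.01 ± 0.67 for Gli1, 0.13 ± 0.68 for Ptch1 and 0.66 ± 0.81 for Hhip (4 against 4 libraries). Without the libraries numbered 3 and 4, an alternative added after the values were seen, Gli1 (-2.02, edgeR adjusted p = 0.0133) and Ptch1 (-1.89, 0.0103) passed in that comparison.

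The same 4 P20 libraries were high in the Hedgehog targets, in Irx5 and in genes of dividing cells. Mki67, a protein of dividing cells, reached 1252 and 1418 CPM under the Irx5KO label on the earlier P20 date, and 429 and 228 CPM under the WT label on the later one. The remaining P20 libraries had 18.5 and 14.5 CPM (later, Irx5KO) and 10.5 and 3.75 CPM (earlier, WT), and the 6 from P18 had 14.1 to 36.5 CPM. The Mki67 difference, labelled Irx5KO minus WT, was -4.32 ± 0.39 on the later date and 7.53 ± 0.40 on the earlier date (edgeR adjusted p = 0.000432 and 7.69e-06). Levels of Gli1 and Irx5 did not keep the full rank of Mki67 inside this group of 4. P20 WT 2 had more Gli1 than P20 WT 1 (213 against 176 CPM) with less Mki67 (228 against 429 CPM). Irx5 kept the rank between these libraries (93.5 against 108 CPM). It was higher in P20 Irx5KO 3 than in P20 Irx5KO 4 (181 against 170 CPM), with less Mki67. Among the 10 other libraries, where Mki67 was at most 36.5 CPM, Gli1 ran from 31.0 to 80.5 CPM and Ptch1 from 51.4 to 119 CPM. The part of the share of dividing cells in these differences was not tested, and in bulk RNA fewer cells with a transcript and less of it per cell cannot be told apart.

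**Figure D3:**
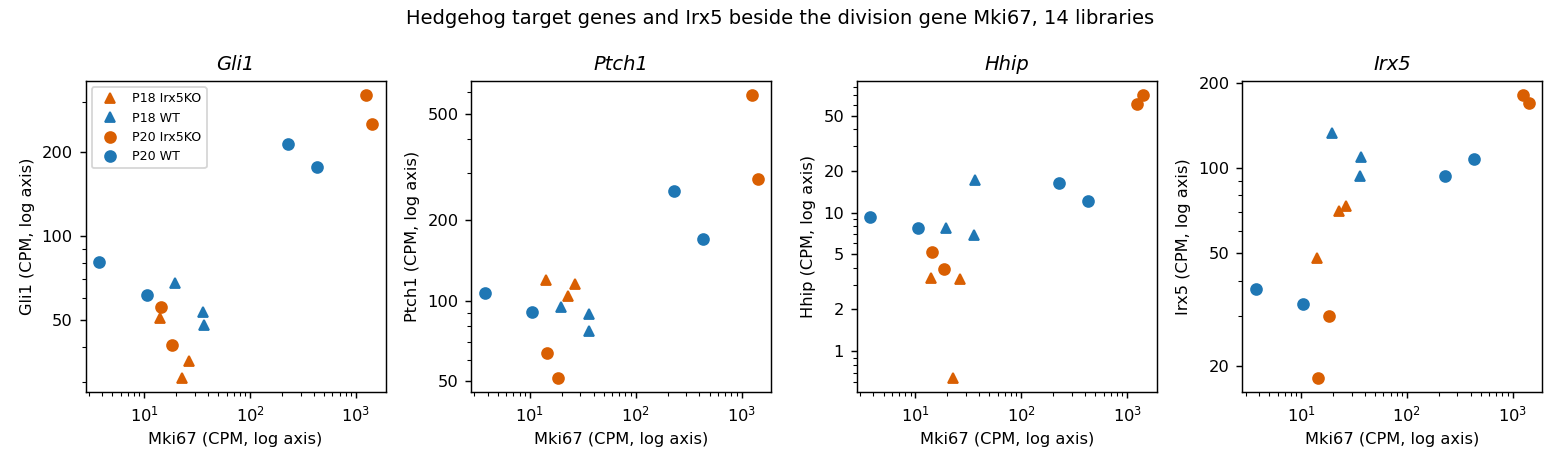
Level of Gli1, Ptch1, Hhip and Irx5 (vertical axes, CPM, log scale) against that of Mki67 (horizontal axes, CPM, log scale) in the 14 libraries, coloured by labelled genotype, with triangles for P18 and circles for P20. The 4 libraries with Mki67 at 228 CPM or more have the 4 highest levels of Gli1 (176 to 318 CPM) and Ptch1 (170 to 586 CPM), while Irx5 is also high in P18 libraries with little Mki67.

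The ligand-binding co-receptors passed in none of the P20 comparisons. Gas1 was at 182 and 183 CPM in later Irx5KO-labelled libraries against 194 and 209.8 CPM for WT, and at 381 and 276 CPM against 319 and 467 CPM on the earlier date. The Gas1 differences were -0.15 ± 0.26 and -0.26 ± 0.26, with a sign on the later date that turned in TPM. Boc was at 449.6 and 453 CPM against 301 and 209.0 CPM on the later date, where the groups did not overlap (0.82 ± 0.26, edgeR adjusted p = 0.301). Boc on the earlier date was at 453 and 350.3 CPM against 439.7 and 559 CPM (-0.31 ± 0.26, edgeR adjusted p = 0.617). Its difference between dates was 1.14 ± 0.36 (edgeR adjusted p = 0.093, DESeq2 adjusted p = 0.0283). Cdon spread widely within groups, with 159 and 67.9 CPM in later Irx5KO-labelled libraries and 158 and 106 CPM in WT (-0.22 ± 0.39). Cdon on the earlier date was at 170.1 and 177 CPM against 138 and 242 CPM (-0.13 ± 0.39).

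Of the other factors, Gli2, the main activator of the pathway, did not pass by genotype. It was at 223 and 237 CPM against 246 and 255 CPM on the later date (-0.12 ± 0.25, a sign that turned in TPM) and at 308 and 240.4 CPM against 181 and 180.4 CPM on the earlier date (0.60 ± 0.25, edgeR adjusted p = 0.218). Its groups did not overlap on either date, below WT on the later and above WT on the earlier, and the difference between dates did not pass (-0.73 ± 0.35, edgeR adjusted p = 0.33). Gli3 was at 141 and 155 CPM in later Irx5KO-labelled libraries against 97.8 and 70.1 CPM in WT. These groups did not overlap, and the Gli3 difference of 0.82 ± 0.23 did not pass in edgeR (adjusted p = 0.216) and passed in DESeq2 (0.82, adjusted p = 0.0399). On the earlier date Gli3 had 116 and 109.6 CPM against 126 and 114 CPM (-0.09 ± 0.23), a sign that turned in TPM and at raw library sizes.

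Transcript models bear on how far these levels can be split. The main model took 95.6% of the counts of Gli1 and 81.9% of those of Gli2, and a single model took all counts of Boc and of Shh. The counts of Ptch1 were shared mainly between models with 40.3% and 37.8%, and the share of the second ran from 10.2% to 53.7% in single libraries. The main Cdon model took 18.6% to 91.8% of the counts of its gene. The quantification divides reads between overlapping models statistically, so only gene sums were compared.

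Further genes of the pathway were taken from lists by role, and few genes of reception and transduction passed. Of 9 genes of reception at the membrane, 1 was lower on the later date (Ptch1) and 2 were higher on the earlier date (Ptch1 and Hhip), with medians of -0.58 and -0.13 beside -0.34 and 0 over all genes tested. Smo, the signal transducer that Ptch1 holds inactive, was at 65.3 and 86.2 CPM against 97.2 and 129 CPM on the later date. Smo on the earlier date was at 227 and 167 CPM against 126.5 and 137 CPM. Both differences kept the direction of the targets without passing (-0.58 ± 0.25 and 0.58 ± 0.25, edgeR adjusted p = 0.676 and 0.253).

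Of 25 genes of signal transduction, Gli1 alone was lower on the later date, and Gli1 and Evc were higher on the earlier date, beside 0.516% of all genes lower and 2.2% higher. The medians of the list were -0.12 and 0.24, beside -0.34 and 0 over all genes. Evc, a protein at the base of the cilium through which Smo acts, was at 94.8 and 46.7 CPM in earlier Irx5KO-labelled libraries against 19.9 and 26.0 CPM in WT (1.63 ± 0.36, edgeR adjusted p = 0.0205). Sufu, the cytoplasmic inhibitor of the Gli proteins, was at 17.0 to 36.1 CPM over the 14 libraries and passed in no comparison. Of 19 genes of the primary cilium and its transport, 0 passed in edgeR in any of the 7 comparisons. Their medians were 0.04 and 0.28 on the later and the earlier P20 date, beside -0.34 and 0 over all genes.

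More of the other Hedgehog target genes passed. This list was chosen with earlier results of these data known, so its counts beside those of all genes are no independent evidence. Of 11 such genes, 3 were lower on the later date and all 11 differences were negative, with a median of -1.78, beside 0.516% of all genes called lower and a median of -0.34 over all genes. On the earlier date 6 were higher and 10 of 11 were positive, with a median of 1.78, beside 2.2% of all genes called higher and a median of 0. The list holds cyclins and Foxm1, which also change with cell division, and 10 of 12 division genes were higher on the earlier date and 6 lower on the later date. Sfrp1, a secreted Wnt inhibitor outside the division machinery, was at 192 and 136 CPM against 546 and 658 CPM on the later date (-1.88 ± 0.27, edgeR adjusted p = 0.00415). On the earlier date Sfrp1 was at 1020 and 967 CPM against 285 and 441 CPM (1.45 ± 0.27, edgeR adjusted p = 0.00605). Ccnd2, a D-type cyclin, changed by -1.78 ± 0.35 and 1.96 ± 0.35 on the later and the earlier date (edgeR adjusted p = 0.038 and 0.00561). Foxm1, a factor of cell division, changed by -2.36 ± 0.42 and 6.13 ± 0.43 (edgeR adjusted p = 0.0183 and 1.03e-05). Mycn, a growth factor-responsive oncogene, had 48.5 and 30.9 CPM in earlier Irx5KO-labelled libraries against 6.72 and 6.17 CPM in WT (2.62 ± 0.58, edgeR adjusted p = 0.0225), and 0.698 to 6.06 CPM at P18.

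**Figure D4:**
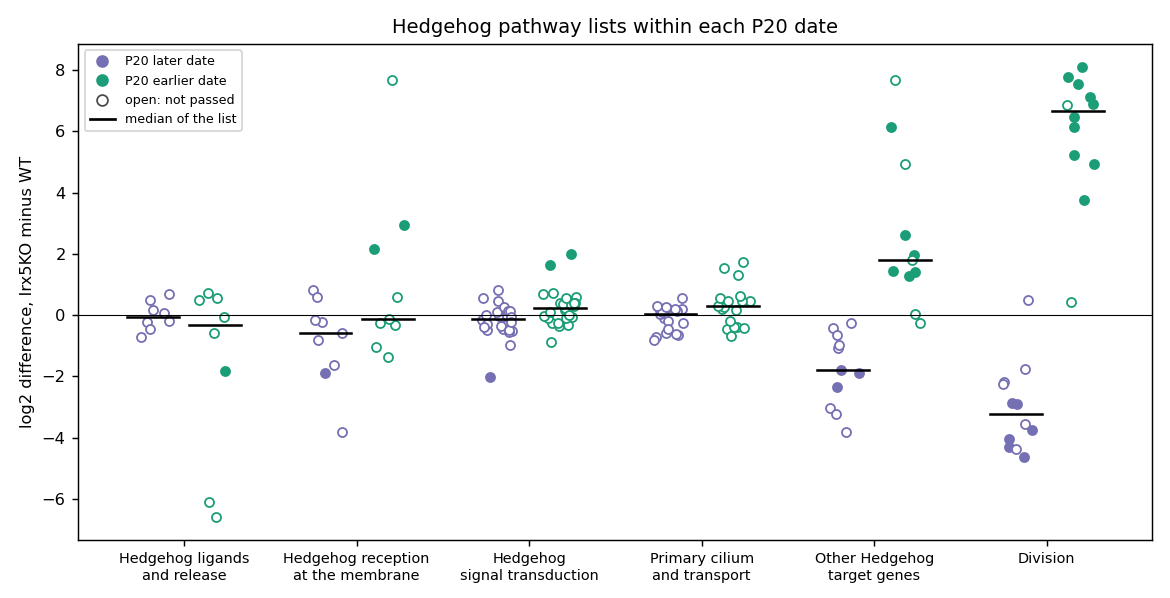
Log2 difference of the libraries labelled Irx5KO minus those labelled WT (vertical axis) for the genes of 5 Hedgehog lists and a list of division genes, within the later (purple) and the earlier (green) P20 date, where a point is a gene, filled where it passed, and a bar the median of the list. The medians of the other target genes and of the division genes lie on opposite sides of 0 on the 2 dates (-1.78 and 1.78 for the targets). The cilium list has medians of 0.04 on the later and 0.28 on the earlier date.

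The ligand had few counts, and its level is given beside that of sensory receptor genes, which these cells are not known to use. Shh had 113 and 12 counts (3.25 and 0.358 CPM) in the later P20 libraries labelled Irx5KO and 88 and 69 counts (2.24 and 2.73 CPM) in those labelled WT. On the earlier date Shh had 14 and 0 counts against 12 and 17 counts. The count of 0 in P20 Irx5KO 4 allows up to 3 counts. At P18 Shh had 94, 231 and 366 counts in the libraries labelled Irx5KO (2.68, 4.36 and 5.54 CPM) and 226, 182 and 234 counts in those labelled WT (6.14, 8.83 and 4.99 CPM). Per length, Shh ran from 0 to 3.91 TPM, while the mean over the sensory receptor genes ran from 0.160 to 8.30 TPM in the same libraries. Shh was below that mean in 6 of the 14 libraries and at most 2.30 times it. Most single receptor genes were lower than their mean, with a median of 0 to 2.46 TPM by library. Shh lay above 79.5% to 94.4% of the receptor genes in 10 libraries, and above 64.4% in P18 WT 2, 55.6% in P20 WT 2, 47.7% in P20 Irx5KO 2 and 0% in P20 Irx5KO 4. The library with the most Shh per length, P18 WT 2, was also the one with the most receptor counts. The libraries highest in Gli1 and Ptch1 (P20 Irx5KO 3 and 4, P20 WT 1 and 2) had 0 to 2.73 CPM of Shh. For Hhip the order differed: P18 WT 2, with the most Shh, had 17.3 CPM of Hhip, above P20 WT 1 and WT 2 (12.2 and 16.4 CPM). The other ligand genes Ihh and Dhh were at 0 to 2.24 and 0 to 13.1 CPM.

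**Figure D5:**
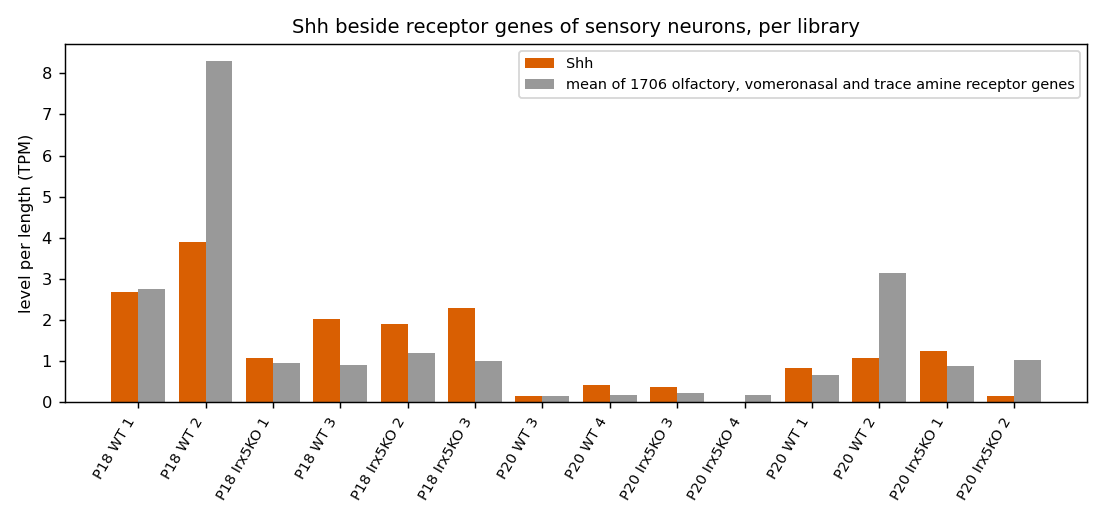
Level of Shh (orange bars) and mean level of the sensory receptor genes (grey bars), both in TPM on the vertical axis from 0, in each of the 14 libraries ordered by age, date and labelled genotype. Shh reaches 3.91 TPM in P18 WT 2, where the receptor mean is 8.30 TPM, and is 0 in P20 Irx5KO 4.

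Of the 8 genes for ligands and their release, 1 passed in a P20 comparison within a date, the earlier, beside 4.83% of all genes on that date and 0.655% on the later. Scube2, which helps release lipid-modified Hedgehog from the producing cell, was at 5.64 and 4.20 CPM in earlier Irx5KO-labelled libraries against 20.8 and 13.97 CPM in WT, a difference of -1.83 ± 0.40 (edgeR adjusted p = 0.0177). On the later date Scube2 was at 24.9 and 23.2 CPM against 16.3 and 18.2 CPM (0.48 ± 0.39, adjusted p = 0.842), and its change between dates was 2.31 ± 0.56 (edgeR adjusted p = 0.0247). The median of the list was -0.06 on the later and -0.31 on the earlier date, beside -0.34 and 0 over all genes.

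At P18 no gene of the pathway passed between labelled genotypes. Of the 9, edgeR called 0, with 0 at an unadjusted p under 0.05, beside 0% of all genes tested, and DESeq2 and limma voom also called 0 of them. Hhip was at 3.40, 0.641 and 3.34 CPM under the Irx5KO label against 6.87, 17.3 and 7.70 CPM under the WT label, a difference of -1.89 ± 1.00 (edgeR adjusted p = 0.92). All 3 lay below all 3, and the difference was -1.83 within the earlier and -1.94 within the later P18 date. Without the filter on low counts, Hhip passed (-1.89, edgeR adjusted p = 0.0445). At these levels (34 to 361 counts), 48.2% to 80.9% of the sensory receptor genes had a lower TPM than Hhip. Ptch1 lay the other way, with 119, 104 and 115 CPM against 89.1, 76.6 and 94.9 CPM (0.37 ± 0.83, edgeR adjusted p = 0.964). This fit shared its spread with P20, where Ptch1 had opposite differences by date. With 1 coefficient per date and genotype, Ptch1 was at 0.53 ± 0.39 within the earlier and 0.21 ± 0.39 within the later P18 date. Each P18 date had a single library of 1 genotype. Groups that do not overlap were found for 2 of the 9 genes and for 23.4% of all genes tested (3.88% higher and 19.5% lower), a share near that of the set.

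Gli1 at P18 was at 50.6, 31.0 and 35.7 CPM under the Irx5KO label against 53.3, 48.1 and 68.0 CPM under the WT label (-0.52 ± 0.82, edgeR adjusted p = 0.944). Within dates the difference was 0.00 on the earlier and -1.03 on the later date, with the single WT library on the later one. For Gas1, Boc and Cdon the sign also differed between the P18 dates (0.49 and -0.42, 0.49 and -0.22, and 0.39 and -0.69). Gli2 (0.43 ± 0.25) and Gli3 (0.28 ± 0.25) were positive within both dates, and Shh was at -0.74 ± 1.16 (edgeR adjusted p = 0.92, 0.92 and 0.95, 3 against 3 libraries).

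Between ages, Gli2 was the gene of the 9 that passed, and it was higher at P20 in both genotypes. At P18 Gli2 was at 132, 134 and 98.6 CPM under the Irx5KO label against 98.9, 74.8 and 97.6 CPM under the WT label. All 8 P20 libraries, from 180.4 to 308 CPM, lay above these 6. Gli2 was 2.38-fold higher at P20 in WT (1.25 ± 0.22, edgeR adjusted p = 0.0413, 4 against 3 libraries), 1 of 48 genes called (0.195%, 0.0691% in the higher direction). In the libraries labelled Irx5KO it was 2.07-fold higher (1.05 ± 0.22, edgeR adjusted p = 0.032), 1 of 386 genes called (1.57%, 0.61% higher). The direction held in every alternative and the call did not. In WT it was lost in 10 of 14 fits that left out 1 library (adjusted p up to 0.24), with TMM over all genes (0.168), with the replicate block (1.30, adjusted p = 0.054) and without the 3 receptor-rich libraries (1.01, adjusted p = 1). In Irx5KO it was lost in 6 of 14 such fits (adjusted p up to 0.266), with TMM over all genes (0.257) and without the P20 libraries numbered 3 and 4 (0.92, adjusted p = 0.0846). Groups did not overlap with age in WT for 2 of the 9 genes (Gli2 above and Shh below), beside 12.4% of genes tested (4.82% higher and 7.54% lower). In Irx5KO they did not overlap for 3 (Gli2, Boc and Hhip, all above), beside 13.8% of genes tested and 5.25% in the higher direction. No date held both ages, and the effects of age and of date cannot be told apart.

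Other genes of the set did not pass between ages. Shh was lower in all 4 P20 libraries labelled WT than in the 3 from P18 (-2.05 ± 1.15, edgeR adjusted p = 0.605) and overlapped in Irx5KO (-1.86 ± 1.16, adjusted p = 0.505). Hhip in Irx5KO was at 3.83 ± 0.90 (edgeR adjusted p = 0.105, DESeq2 adjusted p = 0.000532) and Gli1 at 2.09 ± 0.65 (edgeR adjusted p = 0.205, DESeq2 adjusted p = 0.0227), with the libraries numbered 3 and 4 the highest of the group. These comparisons use the same libraries as the genotype comparisons and are no independent evidence.

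Genes nearest to the targets in their pattern over the 14 libraries included genes of DNA replication. The search took genes with a mean of at least 8 CPM, without the set itself, provisional gene models, pseudogenes and genes of the mitochondrial genome. The Pearson r of log2 CPM with Gli1 was 0.977 for Ror1, a receptor tyrosine kinase-like protein, 0.953 for the DNA ligase gene Lig1, 0.952 for Egln1, 0.949 for the chromatin assembly gene Chaf1a and 0.948 for Parp1. For Ptch1 it was 0.966 for Mcm6, a subunit of the replicative helicase, 0.953 for Igfbp4, 0.942 for Rpa1, 0.938 for Cdk4 and 0.933 for Pltp. For Shh the nearest were Blnk (0.915), Iffo1 (0.903), Coa4 (0.9), Prdm9 (0.899) and Itih5 (0.897). Within the set, Gli1 had r = 0.868 with Ptch1 and 0.862 with Hhip, and Gli3 had 0.749 with Boc, while Shh had -0.734 with Gli2. The libraries fall into clusters (the 4 rich in Mki67 against the rest, and P18 against P20), and they share dates and depth, so these r values describe the 14 libraries only.

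Markers of other skin cells were given beside the P20 differences because the dermal papilla and other neighbours of the follicle also respond to Hedgehog. The summed level of 14 dermal markers was 340 and 325 CPM in earlier Irx5KO-labelled libraries, 382 and 264 CPM in the earlier ones labelled WT, 362 and 258 CPM in the later ones labelled Irx5KO and 394 and 915 CPM in the later ones labelled WT. On the earlier date 5 and 7 of the 14 markers were at 0 under the Irx5KO label, against 1 and 4 under WT. Total estimated counts were 13618367 and 18123209 against 32515327 and 16922104. Pdgfra, the defining receptor of dermal fibroblasts, was at 0.137 and 0 CPM against 5.19 and 0.968 CPM in WT. Most of the sum in the earlier libraries labelled Irx5KO was Col1a1, at 246 and 233 CPM. Summed melanocyte markers were at 76.5 and 80.2 CPM in these libraries against 246 and 255 CPM in WT, and leukocyte markers at 14.2 and 14.2 CPM against 32.2 and 18.9 CPM. On the later date the melanocyte sums were 231 and 181 CPM under the Irx5KO label and 136 and 111 CPM under WT, so of the 8 P20 libraries the 4 with the highest levels of Gli1 had the lowest sums. Leukocyte sums on that date were 84.4 and 45.7 CPM against 45.4 and 54.7 CPM. On the earlier date 1 of 13 dermal, 1 of 7 melanocyte, 1 of 8 leukocyte and 1 of 7 endothelial and mural markers tested was lower. Of 8 nerve and Schwann markers 2 were lower and 1 higher, and 0 of 10 upper follicle and epidermis markers passed. On the later date no marker of these lists passed. Of the bulge markers, 0 of 11 passed in edgeR in any comparison, with 9 of 11 differences positive on the later date (median 0.19) and 0 of 11 on the earlier date (median -0.31). Of all 24592 genes tested, 0.655% passed on the later date (median -0.34). On the earlier date 4.83% passed and 646 genes were lower (median 0). Of 16 markers of the hair germ and matrix, 0 passed on the later date (median 0.48) and 2 were lower on the earlier date (median -0.45). These were Bmp2, a signalling ligand (-1.56 ± 0.38, edgeR adjusted p = 0.033), and Wnt10b, a Wnt ligand with 0 counts in both earlier libraries labelled Irx5KO (adjusted p = 0.028), both named after their values were seen. The part of other cell types in the Hedgehog differences was not tested.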

How the data were processed

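Libraries were made from total RNA, read single-end and quantified per transcript (kallisto 0.46.2), per the labels' protocols. Names in the submitters' processing notes include mm10 and DESeq2. Each library has 1 deposited table of 118489 transcripts holding estimated counts and TPM values, per the file headers. The annotation used and any strand setting were not given in the sources used here. Transcripts matched by identifier to GENCODE vM21 genes (116816, the other 1673 held 1.19% to 2.59% of counts) were summed by gene and rounded.

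Counts were tested with edgeR 4.0.16 (robust quasi-likelihood fits over all 14 libraries, R 4.3.3) after its default filter by group, with TMM factors over 10536 genes of at least 8 CPM on average. Genotype fits had date within age as a term, fits within dates had 1 coefficient per date and genotype, and age fits had none. Each fit estimated the spread of a gene over all 14 libraries. In the genotype and age fits, opposite differences between the P20 dates were part of that spread, also for P18. CPM used these factors. A gene passed at a Benjamini-Hochberg adjusted p under 0.05 over all genes tested, and SE is the Wald error of the fitted log2 difference. Only the later P20 date comparison was tried on counts simulated from the mean levels of the real genes. That simulation had the same spread for every gene and no date effect, so it does not bear on the other comparisons.

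The members and lists were chosen with earlier results of these data known. The rule for named genes takes the members, Irx5, Mki67, up to 4 passing genes of each list (or the most abundant) and the 5 genes nearest in pattern to Shh, Gli1 and Ptch1. Ddx3y and Ly6a, and the genes of other lists outside that rule, were named after their values were seen. Alternatives were TMM over all genes, RLE scaling, no filter, DESeq2 1.42.0, limma 3.58.1 voom with sample quality weights, a replicate block, no date term, TPM or raw CPM, and fits without single libraries or sets of libraries. Replicate numbers come from the titles. Same-numbered P18 libraries of the genotypes deviated together (r = 0.313, 0.156 and 0.183 over genes), and P20 ones did not in every pair (r from -0.0195 to 0.26). No replicates agreed within sampling noise (lowest chi-square 56.0 per degree of freedom). The values of 1 gene of the lists are not reported here.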

Additional observations from a re-analysis of the deposited data

Results flagged for a closer look

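The difference between labelled genotypes of 3 genes differed between the P20 dates by an interaction test in edgeR, and Irx5 went against its labels on the earlier date. Whether labels were exchanged there was not tested. The later minus the earlier date was at -4.02 on the log2 scale for Gli1, -4.04 for Ptch1 and -4.59 for Hhip, with all libraries labelled Irx5KO below those labelled WT on the later date and above them on the earlier date.

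Within groups of 4 libraries, 18 checks for a library far from the others found 2. Chance finds about 1 in 20 of such checks. For Boc in P20 Irx5KO, library 4 (350.3 CPM) lay away from the other 3 (449.6 to 453 CPM), a gap of 0.965 of the range of the group. For Cdon in P20 Irx5KO, library 2 (67.9 CPM) lay away from the other 3 (159 to 177 CPM), a gap of 0.834 of the range.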

How the results depend on the processing

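Values are log2 differences of the labelled Irx5KO minus WT, or P20 minus P18, and counts of genes or of the 9 members passing. Gli1, Ptch1 and Hhip kept their direction within both P20 dates and between them in every alternative run. With TMM over all genes, which moves the median of the scaling genes to 0.34 in the P18 and 0.40 in the WT age comparison, 1 member passed at the later P20 date, 0 genes and 0 members with age in WT, and 101 genes and 0 members with age in Irx5KO. Cdon turned to 0.18 at P18 and to 0.050 in the date difference. RLE scaling turned pooled P20 Gli1 to 0.003116. Without the filter, 183 genes and 1 member passed at P18, 209 genes in the pooled P20 comparison, 668 at the later date, 2100 at the earlier date and 2041 in the date difference. DESeq2 called 39 genes at P18, 166 in pooled P20, 468 at the later date, 2706 at the earlier date, 2473 in the date difference, 742 with age in WT, and 1536 and 3 members with age in Irx5KO, with pooled P20 Gli1 at 0.003514. With voom weights, 1 gene passed at P18, 181 and 1 member in pooled P20, 32 and 1 member at the later date, 1894 at the earlier date, 14315 and 5 members with age in WT and 1282 with age in Irx5KO. Voom turned Gas1 at P18 to -0.013, pooled P20 Gli1 to 1.05 and Boc to -0.034, and Ptch1 with age in Irx5KO to -0.36.

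The replicate block left 0 genes called at P18 and changed no call there. No label says that the numbers pair libraries, and P18 Irx5KO 2 and P18 WT 2 carried different dates. At P20 the block left 120 genes at the later date, 985 at the earlier date and 1160 in the date difference. Across ages it left 44 genes and 0 members with age in WT, and 368 genes with age in Irx5KO. It turned Hhip with age in WT to -0.029. Hhip at the earlier P20 date was at 2.95 with the block (edgeR adjusted p = 0.0835). At P18 every same-numbered pair was the most alike, at P20 not. Without the 3 receptor-rich libraries, 1879 genes passed at the earlier date and 2 genes and 0 members with age in WT. Gas1 turned to -0.43 and Boc to -0.22 at P18, pooled P20 Gli1 to 0.30 and Gas1 with age in WT to -0.16. Without a date term pooled P20 Gli1 was at 0.33. Without the P20 libraries numbered 3 and 4 (chosen after seeing the data), 119 genes and 2 members passed in pooled P20, 233 genes and 3 members with age in WT and 0 members with age in Irx5KO. Then Gli2 was at -0.13, Ptch1 at -1.89 and Hhip at -1.64 in pooled P20, Gli3 at -0.17, Gas1 at -0.30 and Boc at -0.013 with age in WT, and Ptch1 at -0.98 with age in Irx5KO. As ratios of TPM, Gli2 (0.046) and Gas1 (0.069) at the later date and Gli3 (0.089, and 0.048 at raw CPM) at the earlier date turned sign. The cause of these shifts was not tested.

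Leaving out each library in turn gave 0 to 1 genes at P18, 28 to 255 genes and 0 to 2 members at the later date (fewest genes without P20 Irx5KO 2), 415 to 1575 at the earlier date (fewest without P20 WT 3), 669 to 1446 in the date difference, 11 to 115 genes and 0 to 1 members with age in WT (fewest without P18 WT 1) and 61 to 419 genes and 0 to 2 members with age in Irx5KO (fewest without P18 Irx5KO 3). Genes whose sign turned ranged as follows. At P18 they were Gli1 (-1.03 to 0.0008324), Gas1 (-0.42 to 0.49), Boc (-0.22 to 0.49) and Cdon (-0.69 to 0.39). In pooled P20 they were Gli1 (-0.83 to 0.82), Ptch1 (-0.69 to 0.95), Hhip (-0.33 to 1.65) and Cdon (-0.45 to 0.032). They were Shh (-2.77 to 0.39) and Cdon (-0.96 to 0.27) at the later date, and Shh (-7.64 to 0.46), Gas1 (-0.51 to 0.040) and Cdon (-0.48 to 0.33) at the earlier date. In the date difference they were Shh (-2.20 to 7.18), Gas1 (-0.18 to 0.37) and Cdon (-0.83 to 0.40). With age they were Gli3 (-0.025 to 0.22), Hhip (-0.14 to 0.63) and Gas1 (-0.048 to 0.59) in WT and Gas1 (-0.33 to 0.061) in Irx5KO. A group left with 1 library was assumed to vary like the others. Shh rested on at most 366 counts, so its differences are the least precise.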
